A study of Rattus norvegicus with 7 samples.

Results

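The genes described here are 9 markers by which testicular macrophages are recognised: Cd68, Cd163, Csf1r, Mrc1, C1qa, C1qb, C1qc, Aif1 and Cd14. They were measured through the 10 probe sets that the platform annotation gives to 1 of them alone, of 31042 probe sets other than controls and of 14217 genes with a probe set of their own. Every marker has 1 probe set except Aif1, which has 2. Testes of adult male Sprague-Dawley rats, an outbred stock, had been taken 8 h (n = 2) or 20 h (n = 2) after they had received cadmium chloride, 3 mg/kg, once by the intraperitoneal route, or from untreated rats (n = 3). The labels name no vehicle injection for the untreated rats, and call each array a biological replicate without naming the animal, so p-values measure the spread between these samples. RNA came from the whole testis, in which fewer macrophages and less marker RNA per macrophage cannot be told apart.

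Macrophages lie in the interstitium of the testis, beside the Leydig cells and the blood vessels, and are the main resident leukocytes of the organ. In the rat they are classically told apart by a lysosomal protein, CD68, which antibody ED1 stains, and by CD163, which antibody ED2 stains on resident cells and which newly arrived monocytes lack. They depend on signals through CSF1R, the receptor for CSF1 and IL-34. Cadmium chloride injures the small vessels of the rodent testis, with oedema and bleeding in the interstitium at toxic doses. CD163 takes up haemoglobin bound to haptoglobin, and the enzyme HMOX1 then breaks down the haem.

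Values are signals on a linear scale with arbitrary units, and the trimmed mean of every array as deposited was 250.1. The arrays differed in ways the groups do not explain. Hybridization took 3 days. Day 1 held 20 h replicate 1 with untreated replicate 1, day 2 held only untreated replicate 2, and day 3 held the remaining 4 arrays. Untreated replicate 2 was stained under other settings, at 25 °C, and its settings file gives mouse as sample type, against a rat in its labels. The scores of the arrays on the first principal component split by day, with 19.3 to 31.1 for the 4 arrays of day 3, against -39.7 to -32.9 for the remaining ones. The 3' to 5' log2 ratio of actin ran from 1.191 to 1.422 for the arrays of day 3 and from 0.733 to 0.985 for the remaining ones. Each marker is therefore given also as a same-day difference, in which the untreated array of a day is subtracted on the log2 scale from each cadmium array hybridized that day, so that 3 of the 4 cadmium arrays share 1 untreated array. Fold changes are on the log2(signal + 15) scale and understate changes of dim probe sets.

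No marker passed the test. With limma and Benjamini-Hochberg adjustment over 20857 probe sets, 0 of the 10 had an adjusted p under 0.05 at 8 h or 20 h, where the share called among all probe sets was 0% at each time. At an unadjusted p under 0.05, Cd163 and C1qb were higher at 8 h, where 1.16% of all probe sets were, and Cd163 was higher at 20 h, where 0.767% were. No marker was lower at that level, where 4.06% of all probe sets were at 8 h and 2.34% at 20 h. This split moved with the scaling: after quantile normalization 376 probe sets were higher and 469 lower at 8 h, where 242 and 846 were as deposited, and 293 were higher and 279 lower at 20 h, where 160 and 488 were. Cd163, the haemoglobin scavenger receptor, was the marker whose cadmium arrays all stood above the untreated ones, as for 7.59% of all probe sets at 8 h and 4.65% at 20 h. Csf1r was the marker whose cadmium arrays all stood below them, as for 15.4% at 8 h and 10.7% at 20 h. C1qa, C1qc and Cd14 were highest on the same arrays, replicate 1 at 8 h and replicate 1 at 20 h, and the others of their groups were within or below the untreated range.

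**Figure D1:**
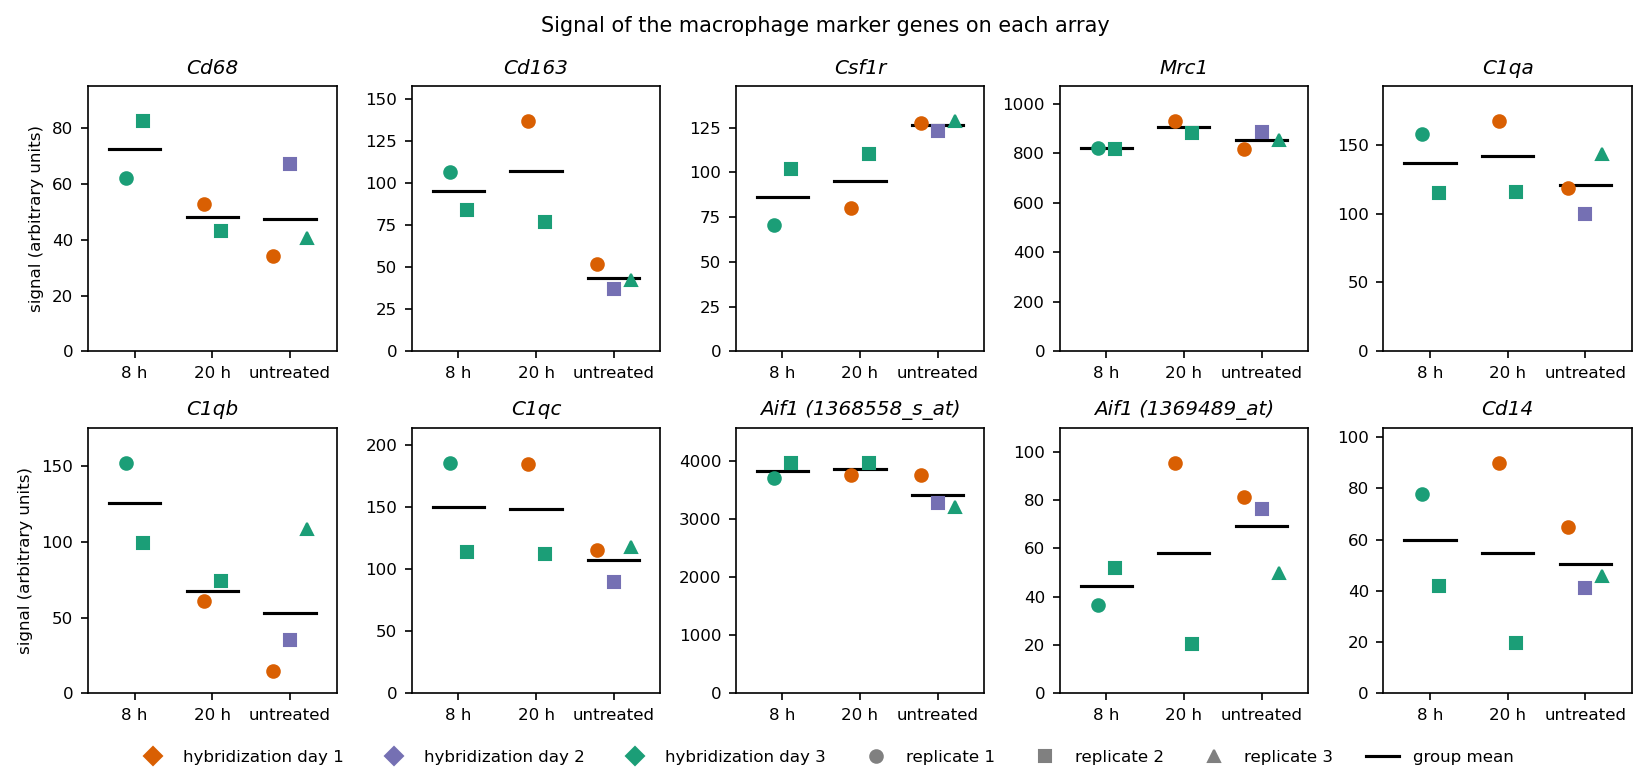
Signal of each marker's probe set (vertical axis, arbitrary linear units from 0) on each array at 8 h, at 20 h and in untreated testis. Points are arrays, coloured by hybridization day and shaped by replicate number, and bars are group means; Cd163 lies at 77.2 or more on the 4 cadmium arrays and at 52.3 or less on the untreated ones, while Csf1r lies at 110 or less on the cadmium arrays and at 122.9 or more on the untreated ones.

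Cd163, probe set 1393917_at, gave 106.8 and 84.3 at 8 h, 137.3 and 77.2 at 20 h, against 52.3, 37.4 and 42.2 in untreated testis. The lowest cadmium array thus stood above the highest untreated one, as for 1.82% of all probe sets tested. The mean was 95.5 ± 15.9 at 8 h and 107 ± 42.5 at 20 h (SD, n = 2 each), against 44.0 ± 7.61 in untreated testis (SD, n = 3). The log2 fold change was 0.91 ± 0.29 (SE) at 8 h, with a 95% confidence interval of 0.25 to 1.56 and an adjusted p of 0.836 in limma. At 20 h it was 1.01 ± 0.29 (SE), with an interval of 0.36 to 1.67 and an adjusted p of 0.999 in limma. These intervals are those of 1 probe set and take no account of the number of probe sets tested. Both comparisons share the untreated arrays. The signal was dim: the median of an array ran from 52.9 to 72.0, and Cd163 exceeded it on 4 of the 7 arrays, the cadmium ones.

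The same-day differences of Cd163 were 1.09 and 0.80 at 8 h and 1.18 and 0.69 at 20 h. All 4 lay above 0, which 12.2% of all probe sets shared, Cd68 among them. In a fit with hybridization day as a block, the log2 fold change was 1.07 at 8 h and 0.93 at 20 h. Leaving out 20 h replicate 1 brought the 20 h value to 0.65, and leaving out 20 h replicate 2 brought it to 1.38. At 20 h against 8 h Cd163 differed by 0.11 ± 0.32 (SE), with a 95% confidence interval of -0.61 to 0.83, so a difference between the times of up to that size in either direction was not resolved.

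Csf1r, the receptor tyrosine kinase that macrophages need to survive, measured by probe set 1388784_at, gave 70.8 and 102.1 at 8 h, 80.0 and 110.0 at 20 h, against 127.5, 122.9 and 128.9 in untreated testis. The untreated arrays, of 3 days, spanned 0.06 on the log2 scale, and every cadmium array was lower, as for 4.9% of all probe sets tested. The mean was 86.4 ± 22.1 at 8 h and 95 ± 21.2 at 20 h (SD, n = 2 each), against 126 ± 3.14 in untreated testis (SD, n = 3). The log2 fold change was -0.50 ± 0.24 (SE) at 8 h, with a 95% confidence interval of -1.03 to 0.03 (limma, adjusted p = 0.836). At 20 h it was -0.38 ± 0.24 (SE), with an interval of -0.91 to 0.15 (limma, adjusted p = 0.999). Same-day differences were -0.75 and -0.30 at 8 h and -0.58 and -0.20 at 20 h, all below 0, which held for 17.7% of all probe sets. Without 8 h replicate 1 the 8 h value was -0.27, and without 20 h replicate 1 the 20 h value was -0.18. The replicate 1 arrays were thus the lower of their pairs for Csf1r and the higher of their pairs for Cd163.

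**Figure D2:**
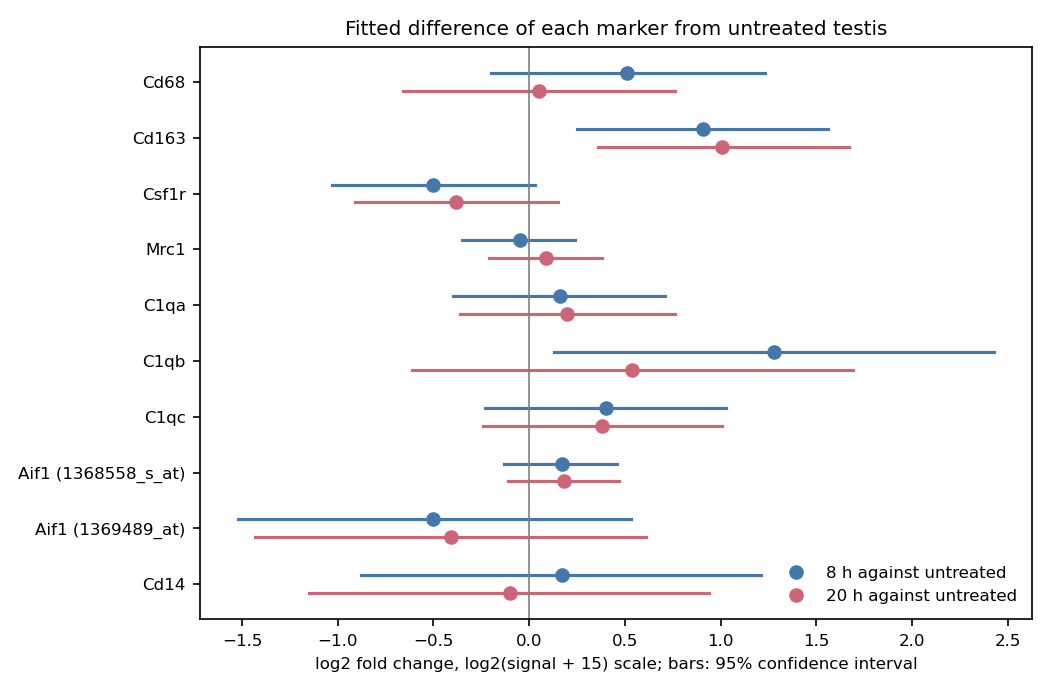
Fitted log2 fold change of each marker at 8 h and at 20 h against untreated testis (horizontal axis, log2(signal + 15) scale), with 95% confidence intervals from limma that are not adjusted for the number of probe sets. The intervals of Cd163 lie above 0 at both times, that of C1qb at 8 h does, and the other intervals, those of Csf1r included, span 0.

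The promoters of these genes are shown because Cd163 and Csf1r separated the cadmium arrays from the untreated ones in opposite directions. Those of C1qa and C1qb, further below, belong to genes that lie on either side of C1qc and had unlike values. Each is the RefSeq window of build GRCr8 from 250 bases before to 50 after the gene's start, given 5' to 3' on the gene's strand. Capitals mark GAGGAA or its reverse complement TTCCTC, the core of the PU box that the macrophage factor PU.1 binds.
Cd163, chr4:158770524-158770823, plus strand: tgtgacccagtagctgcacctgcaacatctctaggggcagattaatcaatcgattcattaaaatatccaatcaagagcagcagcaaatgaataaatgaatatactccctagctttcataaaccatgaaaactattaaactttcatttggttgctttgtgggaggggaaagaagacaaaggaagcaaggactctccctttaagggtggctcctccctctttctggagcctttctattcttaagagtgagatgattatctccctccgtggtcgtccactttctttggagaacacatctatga
Csf1r, chr18:56834129-56834428, plus strand: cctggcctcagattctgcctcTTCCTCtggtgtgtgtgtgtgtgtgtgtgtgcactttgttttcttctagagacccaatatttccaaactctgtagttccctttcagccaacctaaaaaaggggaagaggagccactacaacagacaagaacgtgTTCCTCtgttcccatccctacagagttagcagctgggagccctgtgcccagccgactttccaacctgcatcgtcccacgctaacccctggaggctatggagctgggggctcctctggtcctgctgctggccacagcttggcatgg
The Cd163 window held 0 such matches and the Csf1r window 2. Of the 7 markers with a window in this table, 5 held the motif, as did 27.6% of all 33469 windows. The TATA box, TATAAA on either strand, was found in 0 of the 7, so the motifs overlapped nowhere in them, and in 14.2% of all windows. A match is a description of letters and no match says only that they are not in this window, since these arrays did not measure binding.

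Cd68, a lysosomal glycoprotein of phagocytes measured by probe set 1375010_at, gave 62.2 and 82.6 at 8 h, 52.8 and 43.2 at 20 h, against 34.3, 67.0 and 40.5 in untreated testis. The groups overlapped at each time, since untreated replicate 2 lay above 8 h replicate 1 and above both 20 h arrays. The log2 fold change was 0.51 ± 0.32 (SE) at 8 h (limma, adjusted p = 0.836) and 0.05 ± 0.32 (SE) at 20 h (limma, adjusted p = 0.999). Same-day differences were 0.48 and 0.81 at 8 h and 0.46 and 0.07 at 20 h. Both 20 h arrays lay below both 8 h arrays, as for 13.2% of all probe sets, by -0.47 ± 0.35 (SE) in limma (adjusted p = 1.0).

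Mrc1, the mannose receptor of resident macrophages and of some endothelium, varied least of the 10 probe sets relative to its level. Its probe set, 1392648_at, gave 820.7 and 817.7 at 8 h, 931.4 and 879.5 at 20 h, against 817.8, 883.5 and 853.3 in untreated testis. The highest array was 1.14 times the lowest. Its log2 fold change was -0.05 ± 0.13 (SE) at 8 h, with a 95% confidence interval of -0.35 to 0.24, and 0.09 ± 0.13 (SE) at 20 h, with an interval of -0.21 to 0.38. Both 20 h arrays lay above both 8 h arrays, which 15.2% of all probe sets shared. All 3 groups lay within that narrow range.

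C1qa, C1qb and C1qc encode the chains of C1q, the recognition molecule that starts the classical complement pathway, and tissue macrophages are a main source of it. In the RefSeq table of GRCr8 the genes follow one another on chromosome 5, in the order C1qb, C1qc, C1qa. The window of C1qb held the PU box core 2 times and that of C1qa 0 times.
C1qa, chr5:154419884-154420183, minus strand: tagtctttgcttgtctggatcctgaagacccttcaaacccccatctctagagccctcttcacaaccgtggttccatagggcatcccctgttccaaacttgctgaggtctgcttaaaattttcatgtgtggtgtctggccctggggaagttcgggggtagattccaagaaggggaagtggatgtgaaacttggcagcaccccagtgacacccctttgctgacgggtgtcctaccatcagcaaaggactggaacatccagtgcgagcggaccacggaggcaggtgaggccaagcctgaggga
C1qb, chr5:154407778-154408077, minus strand: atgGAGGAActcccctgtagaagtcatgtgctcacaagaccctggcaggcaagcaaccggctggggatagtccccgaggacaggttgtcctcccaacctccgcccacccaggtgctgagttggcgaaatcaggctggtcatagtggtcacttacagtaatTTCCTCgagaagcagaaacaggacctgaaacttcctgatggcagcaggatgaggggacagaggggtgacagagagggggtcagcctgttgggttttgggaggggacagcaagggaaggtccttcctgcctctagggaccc
C1qc has no window in the table.

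C1qa, probe set 1376652_at, gave 157.5 and 115.2 at 8 h, 167.4 and 115.9 at 20 h, against 118.4, 99.7 and 143.5 in untreated testis. C1qc, probe set 1373025_at, gave 185.8 and 114.2 at 8 h, 185.0 and 112.1 at 20 h, against 115.4, 90.0 and 118.0 in untreated testis. For both chains the replicate 1 arrays at 8 h and 20 h were the highest of the 7, and the replicate 2 arrays lay within the untreated range. C1qc had a log2 fold change of 0.40 ± 0.28 (SE) at 8 h (limma, adjusted p = 0.836) and 0.38 ± 0.28 (SE) at 20 h (limma, adjusted p = 0.999). Without 8 h replicate 1 the 8 h value was 0.08, and without 20 h replicate 1 the 20 h value was 0.06, so each rests on 1 array. C1qa had 0.16 ± 0.25 (SE) at 8 h and 0.20 ± 0.25 (SE) at 20 h, and its direction turned without 8 h replicate 1 (-0.05 at 8 h) and without 20 h replicate 1 (-0.04 at 20 h).

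C1qb did not follow the other chains. Its probe set, 1370215_at, gave 152.3 and 99.3 at 8 h, 60.9 and 74.4 at 20 h, against 14.5, 35.5 and 108.3 in untreated testis. The untreated arrays alone spanned 2.06 on the log2 scale, and overlapped the 8 h arrays, with untreated replicate 3, of day 3, 1.68 above the mean of the others. The lower untreated signals were dim. On untreated replicate 1 the signal, 14.5, lay at percentile 17.1 of its array, and on untreated replicate 2 the signal, 35.5, at percentile 33.5. The span and the fold changes of C1qb against untreated testis thus rest in part on dim signals. The log2 fold change was 1.28 ± 0.51 (SE) at 8 h, with a 95% confidence interval of 0.13 to 2.43 (limma, adjusted p = 0.836), and 0.54 ± 0.51 (SE) at 20 h (limma, adjusted p = 0.999). With hybridization day as a block the 8 h value was 0.62, and without untreated replicate 1 it was 0.81. The 20 h value was 0.06 without untreated replicate 1 and 1.09 without untreated replicate 3. The same-day differences were 0.44 and -0.11 at 8 h and 1.36 and -0.46 at 20 h, above 0 on the replicate 1 arrays and below 0 on the replicate 2 arrays. At 20 h, however, the signal itself was lower on replicate 1 (60.9) than on replicate 2 (74.4). The signs at 20 h thus come from the untreated arrays subtracted, 14.5 on day 1 and 108.3 on day 3. Both 20 h arrays lay below both 8 h arrays, which 13.2% of all probe sets shared, by -0.75 ± 0.56 (SE) in limma (adjusted p = 1.0).

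**Figure D3:**
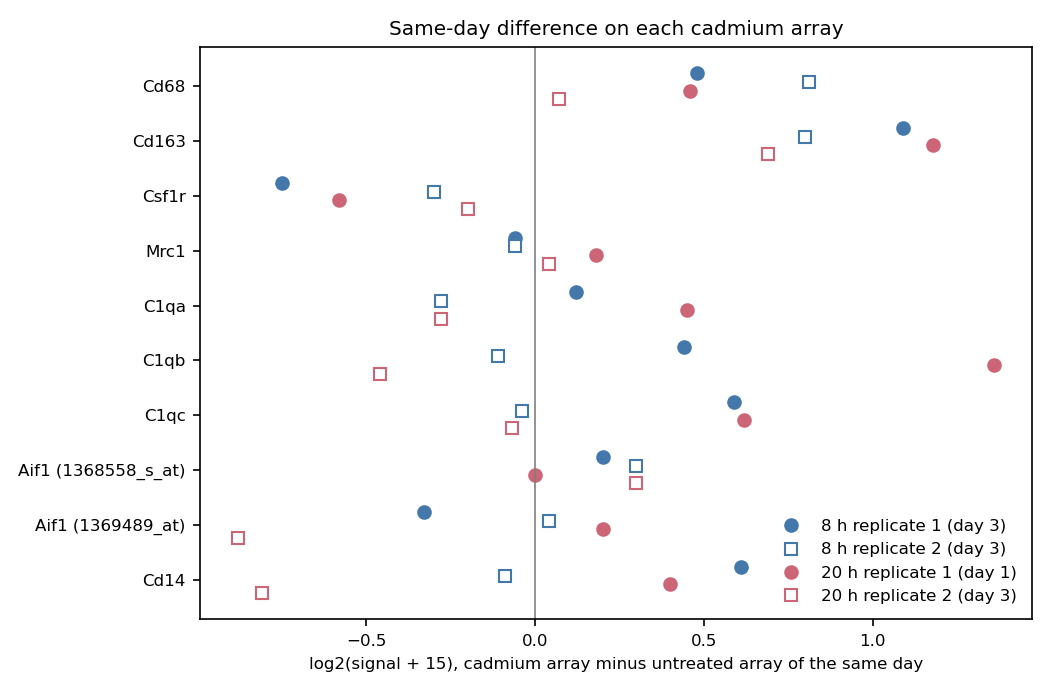
Same-day difference of each marker (horizontal axis, cadmium minus untreated within a day, log2(signal + 15) scale). Filled circles are replicate 1 and open squares replicate 2. Cd163 lies right of 0 and Csf1r left of 0 on all 4 arrays. The replicate 1 arrays lie right of 0 and the replicate 2 arrays left of 0 for C1qa, C1qb, C1qc and Cd14. For C1qb at 20 h this comes from the untreated arrays subtracted, since its signal was lower on replicate 1 (60.9) than on replicate 2 (74.4).

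Cd14, the co-receptor that hands bacterial lipopolysaccharide to TLR4, gave with probe set 1368490_at 77.8 and 42.0 at 8 h, 90.0 and 19.6 at 20 h, against 64.7, 41.2 and 45.6 in untreated testis. The 20 h arrays were the highest and the lowest of the 7. The 95% confidence intervals were -0.88 to 1.21 at 8 h and -1.15 to 0.94 at 20 h, the widest of the 10 probe sets after those of C1qb. Cd14 exceeded the median of its array on 2 of the 7 arrays.

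Aif1, also called Iba1, encodes a calcium-binding protein of the macrophage cytoskeleton, and its 2 probe sets disagreed. The probe set 1368558_s_at gave 3706.7 and 3961.6 at 8 h, 3761.7 and 3975.4 at 20 h, against 3766.3, 3274.9 and 3216.4 in untreated testis. Its log2 fold change was 0.17 ± 0.13 (SE) at 8 h and 0.18 ± 0.13 (SE) at 20 h, with 95% confidence intervals of -0.13 to 0.46 and -0.11 to 0.47. The probe set 1369489_at gave 36.7 and 51.8 at 8 h, 95.5 and 20.3 at 20 h, against 81.4, 76.4 and 49.9 in untreated testis. It had -0.50 ± 0.46 (SE) at 8 h and -0.41 ± 0.46 (SE) at 20 h, and without 20 h replicate 2 its 20 h value turned to 0.41. The suffix _s_at marks a probe set whose probes match more than 1 transcript, and the files do not tell which. It lay at percentile 97.4 to 98.3 of its array, against 28.0 to 58.8 for 1369489_at. Whether its signal came from macrophages was not tested.

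With 1 probe set per gene, 7 of the 9 markers had a higher mean at 8 h than in untreated testis and 2 a lower one, where 39% of all probe sets were higher and 61% lower. At 20 h 7 were higher and 2 lower, where 41.2% of all were higher and 58.8% lower. Aif1 entered these counts as higher through 1368558_s_at, whereas its other probe set, 1369489_at, was lower (-0.50 at 8 h, -0.41 at 20 h). The median log2 fold change of the markers was 0.17 at 8 h and 0.18 at 20 h, and that of all probe sets -0.08 and -0.05. The 20 h median is the value of 1368558_s_at itself. At 8 h the markers' median was 0.38 after quantile normalization, 0.27 with 1 common 75th percentile and 0.45 with hybridization day as a block, where the median of all probe sets was 0.01, 0.02 and -0.02. It was 0.08 without 8 h replicate 1, 0.36 without 8 h replicate 2, 0.32 without untreated replicate 1 and 0.28 without untreated replicate 3. At 20 h it was 0.05 without 20 h replicate 1, 0.42 without 20 h replicate 2 and 0.06 without untreated replicate 1. On single arrays the median over the markers of these same-day values was 0.44 and -0.06 for replicates 1 and 2 at 8 h, and 0.45 and -0.07 for replicates 1 and 2 at 20 h. At 20 h against 8 h, 5 markers were higher, where 52.6% of all probe sets were, and 4 lower, where 47.4% were, with a median of 0.01 that ran from -0.25 to 0.18 as single arrays were left out. In that comparison 0 markers had an unadjusted p under 0.05, where 1.22% of all probe sets were higher and 0.7% lower at that level. Without Aif1 and Mrc1, whose signals make up most of any sum over the markers, the summed signal of the remaining 7 genes was 813.2 and 639.7 at 8 h, 773.4 and 552.4 at 20 h, against 527.1, 493.7 and 627.0 in untreated testis. The sum of 20 h replicate 2 thus lay within the untreated range.

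Some endothelial markers, Cldn5 and Kdr among them, were lowest on the same arrays, and others were not. Cldn5, the claudin of endothelial tight junctions, gave 62.7 and 236.1 at 8 h, 52.5 and 252.9 at 20 h, against 241.2, 241.4 and 231.9 in untreated testis. Kdr, which encodes the endothelial receptor VEGFR2 and was below the array median on all 7 arrays, gave 3.7 and 28.5 at 8 h, 17.0 and 29.4 at 20 h, against 51.8, 59.5 and 55.7 in untreated testis. Of the 12 endothelial genes measured, 10 were tested and had lower means at both times, and 0 passed. Among all probe sets 61% were lower at 8 h and 58.8% at 20 h. The median same-day difference of the 10 was -0.58 and -0.22 at 8 h, and -1.17 and 0.02 at 20 h. The summed signal of the 12 was 573.2 and 892.7 at 8 h, 570.3 and 911.2 at 20 h, against 1137.6, 1119.7 and 980.6 in untreated testis. Eng, the endothelial co-receptor endoglin, gave 68.2 and 92.8 at 8 h, 127.2 and 78.6 at 20 h, against 133.7, 136.3 and 100.7 in untreated testis. On 20 h replicate 1 it thus lay within the untreated range and above 20 h replicate 2, as did Esam, an endothelial adhesion molecule chosen after its values were seen, with 114.2 and 87.5 at 20 h, against 111.3, 136.4 and 77.8 in untreated testis. The low arrays for Cldn5 and Kdr were those on which C1qa, C1qc, Cd14 and Cd163 were highest and Csf1r lowest. The part of the endothelial genes in the marker values was not tested.

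**Figure D4:**
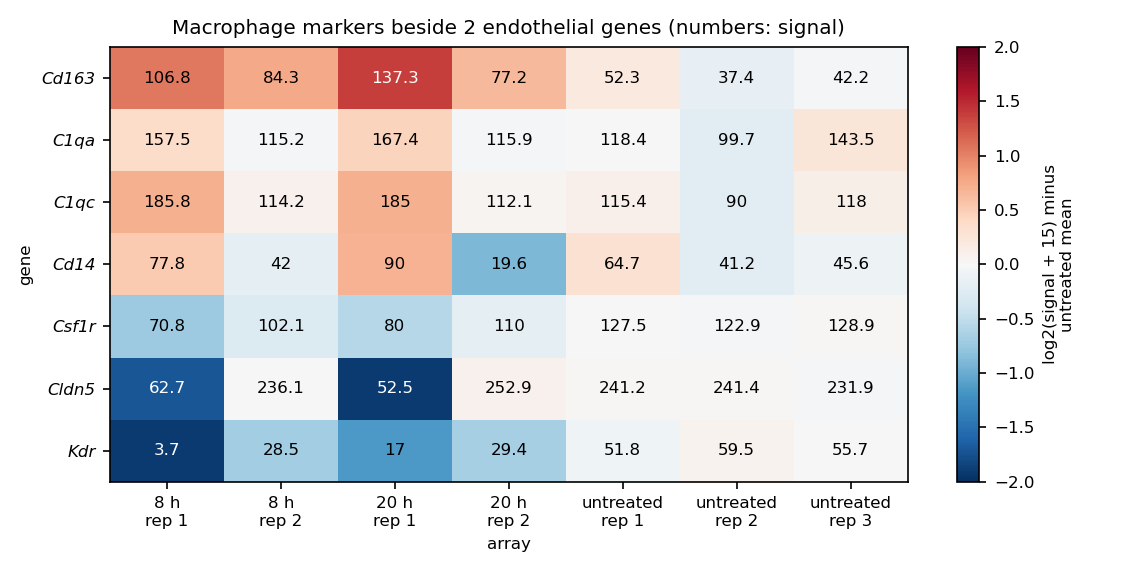
Signal of 5 macrophage markers and of the endothelial genes Cldn5 and Kdr on each array (numbers), coloured by log2(signal + 15) minus the mean of the untreated arrays. Replicate 1 at 8 h and replicate 1 at 20 h hold the highest values of C1qa, C1qc, Cd14 and Cd163 and the lowest values of Csf1r, Cldn5 and Kdr. The genes drawn are among those that share this pattern. Some genes not drawn share it too, as the endothelial gene Emcn (lowest) and Cebpd (highest), and others do not. Cd68 was highest on 8 h replicate 2 (82.6) and Aif1 1368558_s_at on 20 h replicate 2 (3975.4). At 20 h C1qb was lower on replicate 1 (60.9) than on replicate 2 (74.4), and Eng was higher (127.2 against 78.6).

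Genes of haemoglobin and haem clearance were examined because CD163 serves that route. Of 10 measured genes, 7 had a higher mean at 8 h, where 39% of all probe sets did. At 20 h 6 of them did, where 41.2% of all did. Their medians were 0.12 and 0.06, and 0 passed. Hp, which encodes haptoglobin, the carrier that brings haemoglobin to CD163, gave 2388 and 1981.1 at 8 h, 1224.2 and 1798.1 at 20 h, against 729.9, 692.5 and 1518.7 in untreated testis. Both 8 h arrays lay above all untreated ones, as for 7.59% of all probe sets, and the 20 h arrays lay on either side of untreated replicate 3. Its log2 fold change was 1.23 ± 0.32 (SE) at 8 h (limma, adjusted p = 0.836) and 0.69 ± 0.32 (SE) at 20 h (limma, adjusted p = 0.999), and its same-day differences were 0.65 and 0.38 at 8 h and 0.73 and 0.24 at 20 h. Hpx, which encodes the haem carrier hemopexin, gave 567.1 on 20 h replicate 1 and 46.6 to 97.7 on the other 6 arrays. Hmox1, chosen after its values were seen, gave 613.5 and 250.2 at 8 h, 1604.7 and 217.2 at 20 h, against 358.5, 396 and 234.6 in untreated testis, so that it too was highest on the replicate 1 arrays. Hmox2, the constitutive haem oxygenase, had 0.11 at 8 h and 0.07 at 20 h. Slc40a1, the iron exporter ferroportin, and Blvrb, a biliverdin reductase, had log2 fold changes of -0.08 and -0.25 at 8 h and of -0.16 and -0.12 at 20 h.

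The ligands of CSF1R were measured too. Il34 gave 677.6 and 722.4 at 8 h, 612.4 and 641.1 at 20 h, against 564.4, 702.5 and 836.2 in untreated testis, and Csf1 gave 156.4 and 320.3 at 8 h, 405.1 and 270.2 at 20 h, against 301.8, 594.4 and 196.6 in untreated testis. The groups overlapped for both ligands. Of 13 measured genes of this axis and of myeloid transcription factors, 11 were tested, and 0 passed. Of the 11, 6 were higher at 8 h and 8 at 20 h, where 39% and 41.2% of all probe sets were. Their medians were 0.01 and 0.13. Cebpd, an inducible C/EBP factor, gave 133.1 and 55.9 at 8 h, 234.8 and 59.3 at 20 h, against 58.4, 55.2 and 32.3 in untreated testis. Its log2 fold change, 0.71 ± 0.51 (SE) at 8 h and 1.13 ± 0.51 (SE) at 20 h, was the largest positive one of the list at each time, and the replicate 2 arrays lay at the level of the upper untreated ones. Cebpa, the C/EBP factor of myeloid progenitors, had -0.60 at 8 h and -0.47 at 20 h. Irf8, a factor of monocyte development, gave 13.6 and 53.0 at 8 h, 28.5 and 6.6 at 20 h, against 51.0, 44.0 and 61.8 in untreated testis.

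Among partners of C1q in the complement system, 14 of 19 measured genes were tested, and 0 passed. Of the 14, 8 were higher at 8 h and 9 at 20 h, where 39% and 41.2% of all probe sets were. Their medians were 0.11 and 0.06. Serping1, the inhibitor of the C1 proteases, gave 294.7 and 296.8 at 8 h, 369.7 and 328.2 at 20 h, against 194.7, 275.4 and 299.3 in untreated testis. Both 20 h arrays lay above all untreated ones, as for 4.65% of all probe sets, with a log2 fold change of 0.44 (limma, adjusted p = 0.999). Itgb2, the shared chain of the leukocyte integrins that include complement receptors, gave 45.9 and 70.8 at 8 h, 57.6 and 62.5 at 20 h, against 74.5, 95.1 and 122.2 in untreated testis. Its cadmium arrays, like those of Csf1r, all lay below the untreated ones, as for 4.9% of all probe sets tested. Its log2 fold change was -0.61 at 8 h and -0.56 at 20 h (limma, adjusted p = 0.836 and 0.999). Cfd, the complement factor D protease, had 0.40 at 8 h and -0.36 at 20 h. Clu, clusterin, and Calr, calreticulin, which are not restricted to macrophages, had 0.14 and -0.22 at 8 h and 0.09 and 0.00 at 20 h.

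For the route of CD14, 11 of 18 measured genes of Toll-like receptor signalling were tested, and 0 passed. Of the 11, 3 were higher at 8 h and 4 at 20 h, where 39% and 41.2% of all probe sets were. Their medians were -0.06 and -0.05. Tlr4, the receptor that CD14 serves, gave 18.3 and 21.0 at 8 h, 27.9 and 30.5 at 20 h, against 21.7, 41.3 and 12.6 in untreated testis, too dim to be tested. Rela, a subunit of NF-kB, had -0.23 at 8 h and -0.05 at 20 h, and Myd88, the adaptor of Toll-like receptors, -0.18 and -0.03. Irak3, an inhibitory kinase homologue, had 0.19 at 8 h and 0.45 at 20 h, and Tirap, a second adaptor, -0.02 and -0.51. Tnfaip3, a feedback inhibitor of NF-kB, gave 214.4 on 20 h replicate 1 and 43.1 to 100.1 on the other 6 arrays.

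Other genes of tissue macrophages and scavenger receptors had a higher mean in 12 of 17 tested at each time, where 39% of all probe sets did at 8 h and 41.2% at 20 h, with medians of 0.17 and 0.12, and 0 passed. Lgals3, the galectin of phagocytes, gave 1749.9 and 1487.7 at 8 h, 1873.8 and 1446.3 at 20 h, against 964.5, 1185.9 and 1662.1 in untreated testis. Clec10a, a lectin of resident macrophages, had the largest positive value at 8 h, 0.93 ± 0.35 (log2, SE), with 141.2 and 94.3 at 8 h against 49.1, 33 and 90.8 in untreated testis. Apoe, an apolipoprotein that macrophages secrete, had 0.26 at 8 h and 0.01 at 20 h, and Gpnmb, a glycoprotein of lipid-laden macrophages, -0.09 and 0.56. Nos2, the inducible nitric oxide synthase, gave 9.5 and 9.9 at 8 h, 18.8 and 27.7 at 20 h, against 69.3, 17.8 and 64.7 in untreated testis.

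Of 17 genes shared by leukocytes that were tested, 11 were lower at 8 h, where 61% of all probe sets were, and 16 were lower at 20 h, where 58.8% were, with medians of -0.13 and -0.16, and 0 passed. Lyz2, lysozyme, gave 500.9 and 393.5 at 8 h, 354.4 and 415.5 at 20 h, against 330.1, 346.1 and 414.8 in untreated testis. Ptprc, the common leukocyte antigen CD45, gave 3.4 to 24.3 over all 7 arrays and was below the median of its array on each. In the MHC class II list 4 of 9 tested genes were higher at 8 h and 3 at 20 h, where 39% and 41.2% of all probe sets were. The medians of this list were -0.01 and -0.23. Cd74, the invariant chain, gave 435 and 353.4 at 8 h, 309.6 and 308.3 at 20 h, against 378.7, 481.3 and 424.1 in untreated testis, and RT1-Bb ran from 3.1 to 1412.5 among arrays, with 3.1 and 1412.5 at 8 h alone.

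Markers of cells that could arrive with bleeding or inflammation were mostly dim. Of 19 neutrophil and recruited monocyte genes measured, 14 lay below the median of the array on all 7 arrays, S100a8 and S100a9 among them. The 2 above it on all 7 were Lcn2, from 577.4 to 900.9, and Plac8, from 60.2 to 128.2. With Mmp9 they were the 3 genes tested, and 0 passed. Log2 fold changes at 8 h and 20 h were -0.14 and -0.17 for Lcn2, 0.33 and 0.24 for Plac8, and -0.83 and -0.66 for Mmp9. None of the 19 genes had a value of 0. Summed over the 19, the signal was 1094.7 and 933.9 at 8 h, 2110.5 and 897.5 at 20 h, against 1171.7, 973.4 and 1204.8 in untreated testis. The high sum of 20 h replicate 1 included 544.5 for Cxcl1 and 366.7 for Ccl2, chemokines that stood at no more than 17.3 and 34.8 on the other arrays. Because the filter asked for 2 arrays, neither chemokine was tested. Summed signals of T, B and NK cell genes were 932.4 to 1024.6 at 8 h and 903.9 to 955.5 at 20 h, against 1051.8 to 1356.9 in untreated testis. Those of mast cell genes were 198.1 to 237.9 at 8 h and 189.2 to 276.8 at 20 h, against 293.8 to 366.5. Their part in the marker values was not tested.

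Among resident cells of the testis, 8 Leydig cell genes had a median of 0.22 at 8 h and -0.58 at 20 h, and 7 Sertoli cell genes 0.08 and 0.02. The medians were -0.14 and 0.15 for 6 peritubular myoid genes and 0.27 and 0.12 for 9 germ cell genes, with 0 genes that passed. The median same-day difference of the germ cell genes was 0.02 and -0.05 at 8 h, and -0.04 and -0.0 at 20 h. Their summed signal was 118534.9 and 116827.8 at 8 h. It was 120127.3 on untreated replicate 3, also of day 3, and 89980.1 and 79325.3 on the other untreated arrays. The summed Leydig signal was 11675.8 and 7331.3 at 8 h, 2854.7 and 7568.4 at 20 h, against 6223.9, 7203.2 and 8536.1 in untreated testis. On the replicate 1 arrays, where C1qa, C1qc and Cd163 were highest, it was thus the highest of the 7 at 8 h and the lowest at 20 h.

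The genes with the pattern most like the mean of the C1q chains over the 7 arrays were Dnttip2, LOC102554489, Xdh, Fdx1 and Lgals3. Their root mean square difference from that pattern was 0.14 for Dnttip2 and 0.15 for each of the others, on the log2 scale after centring each gene over the 7 arrays. The C1q chains themselves lay at 0.24 for C1qa, 0.47 for C1qb and 0.24 for C1qc, Cd163 at 0.40 and Csf1r at 0.62, where a gene with the same signal on all arrays would lie at 0.38 and the median of all probe sets was 0.50. Cd163 and C1qb were thus no nearer to the pattern than a flat gene. The mean log2 signal of the C1q chains was 7.49 and 6.96 at 8 h, 7.13 and 6.83 at 20 h, against 6.32, 6.40 and 7.10 in untreated testis. The untreated array of day 3 thus lay above the other untreated ones and above 1 array of each cadmium time.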

How the data were processed

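The authors deposited 1 linear signal intensity per probe set and array. Their design text names MAS 5.0 and GeneSpring 7.2. Hybridization days came from the instrument settings, other information per the file headers. Of 31042 probe sets other than controls, 20826 name 1 gene, 436 several and 9780 none; probe sets were named from GEO's platform annotation, and 0 symbols needed an update through the RefSeq table. Probe set positions are not given, since no build is stated. Precision is limited by how few arrays there were.

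Values were analysed as log2(signal + 15), 15 being close to the 20th percentile of all values. A probe set was kept if 2 or more arrays had it above their 40th percentile, which left 20857, all 10 of the markers included. One limma model (version 3.58.1, R 4.3.3) held the 3 groups, with moderated variances that followed the intensity, and Benjamini-Hochberg adjustment ran over every kept probe set. On simulated data for 20 h against untreated with 20857 probe sets, 32% of log2 changes of 1 were recovered, 94.5% of changes of 2 and 98% of changes of 3. False calls numbered 7, 10 and 15. The simulated noise was independent between arrays and held no hybridization day, by which the real arrays split. These shares therefore do not tell what could be recovered from the real arrays. For a gene with several probe sets, the one with the highest mean log2 signal stood for the gene in counts. In the other lists the genes named are mostly those picked by rule, the 2 of highest level and those of largest positive and negative change. A few others were chosen after their values were seen, as Hmox1, Esam, Tlr4, Ptprc, S100a8, S100a9, Cxcl1 and Ccl2. Some picked by rule are not named, as Csnk2b, Lcp2, Cd52, Ctss and RT1-Db1. Lists of T, B and NK, mast, Leydig, Sertoli, peritubular myoid and germ cells are given by medians or sums alone. The markers and lists were chosen with earlier results of these data known.

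Replicate numbers were not taken to pair arrays: over 11539 genes, the differences between replicates 1 and 2 correlated at -0.01 between 8 h and untreated, 0.08 between 20 h and untreated and 0.17 between 20 h and 8 h.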

Additional observations from a re-analysis of the deposited data

Results flagged for a closer look

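Mrc1 is given here because both 20 h arrays lay above the untreated mean and both 8 h arrays below it. The difference itself, 20 h against 8 h, was 0.14 ± 0.14 (log2, SE), with limma's adjusted p at 1.0 and a 95% confidence interval of -0.18 to 0.46. The difference was as large as its standard error and did not pass the test, although both 20 h arrays lay above both 8 h arrays. The mean was 905 ± 36.7 at 20 h and 819 ± 2.12 at 8 h (SD, n = 2 each).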

How the results depend on the processing

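The 10 marker probe sets were refitted under 15 other settings in each of 3 comparisons, or 14 for Cd68, Cd14 and Aif1 1369489_at, which the filter at the 60th percentile removed, and 0 of these fits passed for a marker. Directions held under all settings run in 14 of the 30 marker comparisons, among them Cd163 (0.63 to 1.11 at 8 h, 0.65 to 1.38 at 20 h) and Csf1r (-0.72 to -0.27 at 8 h, -0.57 to -0.18 at 20 h), both against untreated. Over all probe sets the number called stayed at 0 except when 1 array was left out, where it ran from 0 to 1 at 8 h, 0 to 8 at 20 h and 0 to 1 for 20 h against 8 h. The 8 were called without 20 h replicate 2, the 1 at 8 h without 8 h replicate 2, and the 1 for 20 h against 8 h without either of these arrays. With the replicate block 0 were called in each comparison, and 3759 had an unadjusted p under 0.05 at 8 h, where 1088 did without it. Directions turned with the replicate block for Cd68 at 20 h (-0.02). They turned with the day as a block for 20 h against 8 h in Cd163 (-0.13), C1qa (-0.01) and Aif1 1368558_s_at (-0.02), and in Aif1 1369489_at at 8 h (0.13) and for 20 h against 8 h (-0.47). Quantile normalization turned C1qa for 20 h against 8 h (-0.01), Aif1 1368558_s_at at 8 h (-0.01) and Cd14 at 20 h (0.04). Scaling to one 75th percentile turned Mrc1 at 8 h (0.05) and Aif1 1368558_s_at for 20 h against 8 h (-0.03). Leaving out 1 array at a time gave ranges that cross 0 in these comparisons with untreated: Cd68 at 20 h from -0.10 to 0.26, C1qa from -0.05 to 0.36 at 8 h and -0.04 to 0.44 at 20 h, Cd14 from -0.18 to 0.52 at 8 h and -0.90 to 0.70 at 20 h, and Aif1 1369489_at at 20 h from -1.23 to 0.41. For 20 h against 8 h such ranges were -0.25 to 0.47 for Cd163, -0.10 to 0.34 for Csf1r, -0.20 to 0.28 for C1qa, -0.34 to 0.31 for C1qc, -0.03 to 0.06 for Aif1 1368558_s_at, -0.74 to 0.91 for Aif1 1369489_at and -1.07 to 0.53 for Cd14. The cause of these turns was not tested. A fit without a cadmium array leaves 1 array in that group, which is assumed to vary like the others. Signals near or below the array median limit Cd14, Cd68, Cd163, C1qb and the dim Aif1 probe set.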
